A study of Mus musculus with 2 samples.

Results

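The genes described here are the ligands and receptors of 4 guidance systems: semaphorins with plexins, netrins with Dcc and the Unc5 receptors, Slits with Robo receptors, and ephrins with Eph receptors. The rule that picks them uses gene symbols and no measured value, although these gene families were proposed with earlier results of these data known. By this rule 66 of the 47644 genes in the table carry such a symbol, 34 ligand genes and 32 receptor genes, each listed once. RNA was sequenced from whole eyeballs of C57BL/6 mice. The control group is 1 library. The other group, also 1 library, comes from the oxygen-induced retinopathy (OIR) model, in which pups went into high oxygen at day 7 for 5 days, returned to room air and had their eyes taken at day 17. The labels give neither the treatment and age of the control nor the number or sex of the animals behind a library, and a whole eyeball holds lens, cornea, sclera and pigmented tissue besides the retina. Because each group is 1 library, no difference has a replicate check and none was tested. The intervals below are 95% counting intervals and leave out the spread between animals.

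These proteins were first known for steering growing axons, and the same signals steer vessels. Secreted class 3 semaphorins act through plexins with neuropilins as co-receptors and mostly repel, while classes 4 to 7 are bound to the membrane. Netrins attract through Dcc and repel through Unc5 receptors, and Slits repel through Robo receptors. Ephrins and Eph receptors signal between touching cells and lay out both the retinal map in the brain and the border between arteries and veins. In the retina these systems guide ganglion cell axons to the optic disc, sort the synaptic layers and shape the vessel plexus, and Plxnd1, Unc5b and Robo4 are the receptors best known from endothelium.

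Most guidance genes stood close to the level that the average gene kept between the libraries, and Plxnd1, Unc5b and Robo4 stood out from their families. The OIR library holds 20378793 reads and the control library 15741235. Differences given below subtract the control from OIR on the log2(FPKM + 1) scale, where FPKM is a level corrected for transcript length and library total. A gene had to reach 1 FPKM in OIR or in the control, which 15883 genes did. They are referred to as tested genes, a name for the filter only. Of the 66 guidance genes 64 met it. The exceptions were the netrin gene Ntn5, with 9 OIR reads and 2 control reads, and Robo3, a receptor of axons that cross the midline, at 0.674 and 0.928 FPKM. Plxnb3 met the filter only through its OIR value. The tested guidance genes had a median difference of 0.18, beside 0.11 for all tested genes and 0.18 for the 3253 tested coding genes whose transcripts are at least as long as the median guidance transcript. Centred within 20 bins of transcript length, the median of the guidance genes was 0.02.

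By size alone, 1 of the 64 guidance genes was at least 2-fold higher in OIR on this scale, where 3.07% of all tested genes were, and none was at least 2-fold lower, where 0.718% were. The ratio of read shares, which the pseudocount does not shrink, was at least 2 for 3 guidance genes, 4.69% of them, against 6.38% of tested genes, and at most 0.5 for none, against 1.73%. A ratio of at least 1.5 with a counting interval above 1 was met by 10 guidance genes, 15.6% against 11.3% of tested genes, and the mirror condition by none, against 2.8%. Intervals lay above 1 for 33 guidance genes, 51.6% against 36.7% of tested genes, and below 1 for 7, 10.9% against 14.7%. Of the 47644 genes in the table, the authors marked 95 as higher and 7 as lower, and no guidance gene is among them. So few genes carry a mark that its absence here says little about guidance genes. The marks also compare 1 library with 1 library.

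The sequences upstream of the 3 receptor genes with ratios of at least 2 are shown because these were the highest ratios among tested guidance genes. Shared control of the 3 genes was not tested. They are RefSeq windows on GRCm38.p6, which is mm10, read 5′ to 3′ on the gene's strand and, for Plxnd1 and Unc5b, ending at the base before the start site. Plxnd1 is at chr6:115995006-115995255 (minus strand), Unc5b at chr10:60831582-60831831 (minus strand) and Robo4 at chr9:37401722-37401896 (plus strand). For Robo4 only the 175 bases before the gene's span in the table are printed, and the rest of its window up to the RefSeq start was searched but is not shown. Capitals mark the hypoxia response core GCGTG on either strand.
Plxnd1: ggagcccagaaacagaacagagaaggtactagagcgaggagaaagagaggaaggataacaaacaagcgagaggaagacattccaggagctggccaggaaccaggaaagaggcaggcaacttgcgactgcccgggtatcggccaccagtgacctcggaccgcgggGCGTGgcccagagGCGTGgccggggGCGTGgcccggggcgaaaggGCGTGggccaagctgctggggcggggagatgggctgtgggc
Unc5b: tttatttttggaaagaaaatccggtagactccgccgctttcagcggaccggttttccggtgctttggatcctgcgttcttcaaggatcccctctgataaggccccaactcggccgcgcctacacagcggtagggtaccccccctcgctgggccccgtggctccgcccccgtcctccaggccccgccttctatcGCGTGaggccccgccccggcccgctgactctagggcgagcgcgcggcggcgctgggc
Robo4: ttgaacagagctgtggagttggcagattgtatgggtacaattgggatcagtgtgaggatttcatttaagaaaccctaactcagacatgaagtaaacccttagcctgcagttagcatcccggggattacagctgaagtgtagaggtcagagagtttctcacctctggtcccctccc

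The core GCGTG occurs 4 times in the 250 bases before Plxnd1, once before Unc5b and not before Robo4, and the other hypoxia core, ACGTG, occurs in none of the 3. Among 32817 upstream windows of 250 bases, 28.1% hold GCGTG, 16.6% hold ACGTG and 0.844% hold GCGTG at least 4 times. RefSeq windows were found for 56 of the 66 guidance genes, 72 windows in all. GCGTG occurred at least 4 times in 2 of these 72, that of Plxnd1 among them. Of the 72, 33.3% held GCGTG, 16.7% ACGTG and 18.1% the RBPJ core TGGGAA, against 21.6% of all windows for the last. The GC box GGGCGG was in 69.4% of guidance gene windows and 32.7% of all. Before Plxnd1 it occurs once, before Unc5b 2 times and before Robo4 not at all, and the full windows of 250 bases are 64.8%, 66.8% and 49.6% G and C, beside a median of 52.4%. All motifs were searched on both strands, and none of these strings contains another, although ACGTG and GCGTG share 4 letters. A match is a string of letters, not a bound site.

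The 5 leading guidance genes held 37.6% of the summed FPKM of all 66 in OIR and 35.1% in the control. By FPKM, which is a level per length, the semaphorin gene Sema3f was highest in both libraries, at 106 (OIR) and 82.1 (control). The receptor genes Plxnb1 (83.3 and 57.0), Plxnb2 (75.0 and 60.9) and Plxna2 (41.2 and 28.0) and the ligand gene Slit2 (38.7 and 33.9) completed the first 5 places in both libraries, with their order changed. Plxnd1 was 17th in the control and 6th in OIR. Unc5b was 53rd and 40th, and Robo4 56th and 49th, so both remained among the lower levels. Summed over genes, ligands reached 457 FPKM (OIR) and 382 (control), and receptors 458 and 364.

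**Figure D1:**
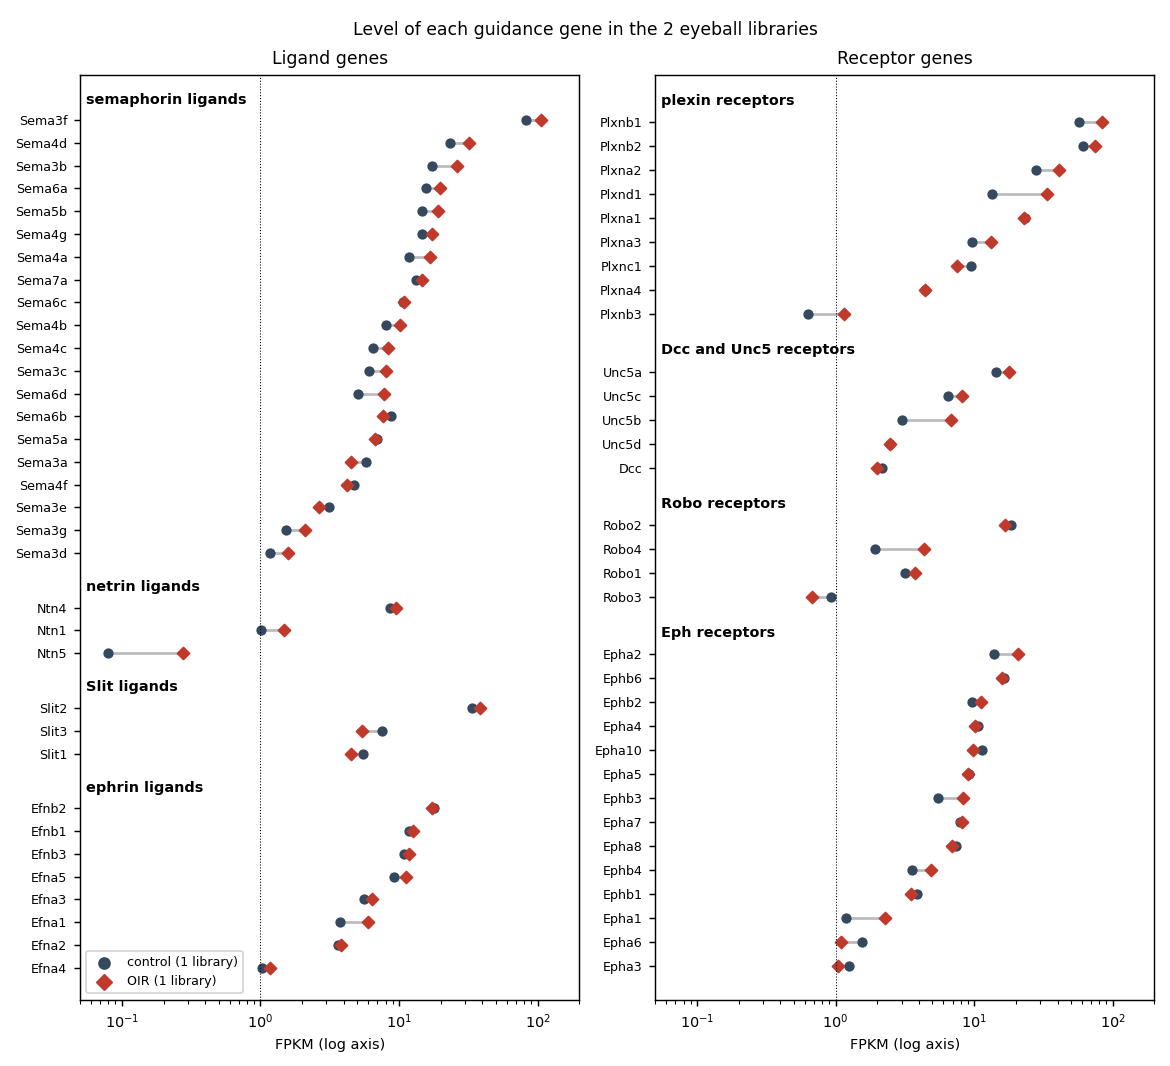
FPKM (log axis) of all 66 guidance genes, control as circles and OIR as diamonds, 1 library each, grouped by family with ligand genes on the left. The dotted line marks the filter at an FPKM of 1. Sema3f leads at 106 and 82.1 FPKM, most pairs of points lie close together, and Plxnd1, Unc5b and Robo4 have wide gaps.

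Semaphorins and plexins made up most of the guidance RNA and had the highest family medians. Of 20 semaphorin genes 15 stood higher in OIR and 5 lower, with a median difference of 0.30, and none was at least 2-fold apart on the log2(FPKM + 1) scale. Among the 9 plexin genes 6 stood higher and 3 lower, with a median of 0.40. Of all tested genes 64.9% stood higher. Centred on the all-gene median these medians were 0.19 and 0.29, and within length bins 0.13 and 0.20.

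Plxnd1, the endothelial receptor for Sema3e (ENSMUSG00000030123, chromosome 6, 115954811 to 115995005), was covered by 1224 OIR reads and 381 control reads, which gave 33.3 and 13.4 FPKM. Its read-share ratio was 2.48 (2.21 to 2.79) and its difference 1.25, so it is the guidance gene that passed 2-fold on the log2(FPKM + 1) scale. Sema3e, its ligand, made by ganglion cells, did not stand higher beside it, with 251 and 229 reads, 2.66 and 3.14 FPKM and a ratio of 0.847 (0.705 to 1.02). Sema3a, a vessel repellent also made by ganglion cells, was lower at 4.52 and 5.77 FPKM, a ratio of 0.783 (0.649 to 0.943). The neuropilin co-receptor genes, which bind class 3 semaphorins and VEGF, were moderately higher, Nrp1 at 7.73 and 5.25 FPKM (ratio 1.47, 1.32 to 1.65) and Nrp2 at 5.36 and 4.17 (1.29, 1.13 to 1.47).

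Other class 3 genes went the opposite way from Sema3a. Sema3f, which repels vessels through neuropilin 2, had 2742 and 1643 reads and a ratio of 1.29 (1.21 to 1.37), and its neighbour Sema3b had 906 and 459 reads, 26.4 and 17.3 FPKM and a ratio of 1.52 (1.36 to 1.71). Sema3c and Sema3g had ratios of 1.33 (1.14 to 1.56) and 1.38 (1.09 to 1.76), while for Sema3d, at 1.35 from 107 and 61 reads, the interval held 1 (0.98 to 1.89). Thus 4 of the 7 class 3 genes had intervals above 1, where 36.7% of all tested genes did, and Sema3a had one below it, where 14.7% did.

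Membrane semaphorins and their plexins were higher in part. In class 4, 5 of 6 genes had intervals above 1, where 36.7% of all tested genes did, with ratios from 1.18 for Sema4g to 1.42 for Sema4a, which acts in immune cells and pigment epithelium, and Sema4f stood at 0.901 (0.720 to 1.13). Sema4d, the ligand of plexin B1, had 32.1 and 23.4 FPKM and a ratio of 1.37 (1.23 to 1.53). Plxnb1 itself had 3122 and 1652 reads and a ratio of 1.46 (1.37 to 1.55). Plxnb2 had a ratio of 1.23 (1.17 to 1.29). Plxnb3, whose product binds Sema5a, had 116 and 49 reads, 1.15 and 0.628 FPKM, and a ratio of 1.83 with a wide interval (1.30 to 2.61).

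Classes 5 to 7 and the A plexins, which lay out retinal layers, were uneven. Sema6d, a transmembrane ligand of plexin A1, had 717 and 358 reads, 7.83 and 5.06 FPKM and a ratio of 1.55 (1.36 to 1.76). Sema6a and its receptor Plxna2 had ratios of 1.27 (1.16 to 1.38) and 1.47 (1.39 to 1.56), but Plxna4, the other receptor of Sema6a, stood at 0.993 (0.882 to 1.12). Sema5b had 1.32 (1.17 to 1.48) and Sema5a 0.956 (0.885 to 1.03), and of their receptors Plxna3 had 1.36 (1.17 to 1.57) and Plxna1 0.982 (0.905 to 1.07). Sema6b was lower at 0.881 (0.782 to 0.993) and Sema6c level at 1.01 (0.881 to 1.15). The pair of Sema7a and Plxnc1, ligand and receptor in immune cells and neurons, split, with Sema7a at 1.11 (1.01 to 1.23) and Plxnc1 at 0.798 (0.685 to 0.929).

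Among netrins and their receptors, Unc5b stood apart. It encodes the repulsive netrin receptor of arteries and sprouting tip cells (ENSMUSG00000020099, chromosome 10, 60762610 to 60831581) and was covered by 815 OIR reads and 277 control reads, with 6.83 and 3.01 FPKM, a ratio of 2.27 (1.98 to 2.61) and a difference of 0.97, just under 2-fold on the log2 scale with pseudocount 1. Its paralogs of neurons were nearer 1, Unc5a, the highest of the family at 18.0 and 14.4 FPKM, at 1.25 (1.10 to 1.40), Unc5c at 1.26 (1.11 to 1.43) and Unc5d at 1.00 (0.868 to 1.15). Dcc, the attractive receptor that leads ganglion cell axons into the optic nerve, had 187 and 159 reads and a ratio of 0.908 (0.731 to 1.13). Of the ligands, Ntn1, the classical netrin, was low in both libraries, at 1.48 and 1.02 FPKM from 126 and 67 reads, with a ratio of 1.45 (1.07 to 1.98). Ntn4, a netrin of basement membranes, had 407 and 289 reads, 9.45 and 8.68 FPKM and a ratio of 1.09 (0.933 to 1.27). The median was 0.29 for the 5 receptors and 0.20 for the 2 tested ligands.

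In the Slit and Robo system ligands and receptors were each divided. Slit2, made in the retina and a ligand for Robo1 and Robo2, was by far the highest Slit at 38.7 and 33.9 FPKM and had a ratio of 1.14 (1.07 to 1.21). Slit1 and Slit3 were lower in OIR, Slit1 at 4.53 and 5.55 FPKM (ratio 0.817, 0.695 to 0.960), and Slit3 at 5.37 and 7.61 FPKM from 203 and 222 reads, where the ratio was 0.706 (0.581 to 0.858), the lowest of all tested guidance genes. The Slit median was -0.24, and it stayed below 0 under every scaling tried.

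Robo4, the Robo receptor of endothelium that steadies vessels (ENSMUSG00000032125, chromosome 9, 37401897 to 37414023), was covered by 343 OIR reads and 117 control reads, with 4.38 and 1.93 FPKM and a ratio of 2.26 (1.83 to 2.82). Its difference was 0.87. Robo2, the main Robo of ganglion cell axons, had 1194 and 1016 reads, 16.8 and 18.5 FPKM and a ratio of 0.908 (0.834 to 0.988), and Robo1, found in neurons and vessels, 1.17 (1.02 to 1.33). Robo3 lies 1645 bases from Robo4 on the other strand, with 47 and 50 reads and a ratio of 0.726 (0.477 to 1.10), so the intervals of these neighbours did not overlap. Other neighbours were Sema3b and Sema3f, 72270 bases apart with ratios of 1.52 and 1.29, and Efna1, Efna3 and Efna4 on chromosome 3 between 89271733 and 89338028, with 1.58, 1.15 and 1.13.

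Ephrins and Eph receptors were near level as families. Of 8 ephrin genes 7 stood higher, with a median of 0.10, close to the 0.11 of all tested genes, and of 14 Eph genes 6 stood higher and 8 lower, with a median of -0.04. Both signs depend on the scale, since the ephrin median was -0.01 once centred on the all-gene median and the Eph median 0.05 in TPM. Intervals held 1 for 6 ephrins and 8 Eph genes. They lay above 1 for 2 ephrins and 5 Eph genes, where 36.7% of all tested genes did. Only Epha10 had an interval below 1, where 14.7% did.

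The higher members were few. Efna1, an ephrin of endothelium and epithelium, had 182 and 89 reads, 5.93 and 3.76 FPKM and a ratio of 1.58 (1.22 to 2.06). Epha2, its receptor in vessels, lens and surface epithelium and the highest Eph gene in OIR (Ephb6 was higher in the control, at 16.5 FPKM), had 630 and 323 reads, 20.9 and 13.9 FPKM and a ratio of 1.51 (1.32 to 1.73). Ephb3 had 561 and 286 reads, 8.36 and 5.52 FPKM and 1.52 (1.31 to 1.75). Epha1, an epithelial Eph receptor, had 111 and 45 reads, 2.26 and 1.19 FPKM and 1.91 (1.34 to 2.76). Its span overlaps Zyx on the other strand, with 781 and 481 reads, and the sources used here do not say if reads were assigned by strand.

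The pair that marks arteries and veins did not stand higher together. Efnb2, the arterial ephrin and the highest of its family, had 880 and 700 reads, 17.4 and 17.9 FPKM and a ratio of 0.971 (0.878 to 1.07). Ephb4, its venous receptor, had 400 and 224 reads, 4.89 and 3.55 FPKM and 1.38 (1.17 to 1.63), and it overlaps Zan on the other strand, with 573 and 294 reads. Ratios of other Eph genes lay on both sides of 1, with Ephb2 at 1.15 (1.04 to 1.28), Epha5 at 0.985 (0.885 to 1.10), Epha4 at 0.951 (0.851 to 1.06), Epha6 at 0.708 from 44 and 48 reads (0.459 to 1.09) and Epha10, a receptor without kinase activity, at 0.869 (0.766 to 0.986). Efna5, the ephrin that orders ganglion cell axons in the brain, had 1.21 (1.06 to 1.39). The remaining genes of both families had ratios from 0.835 for Epha3 to 1.15 for Efna3, with intervals that held 1.

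**Figure D2:**
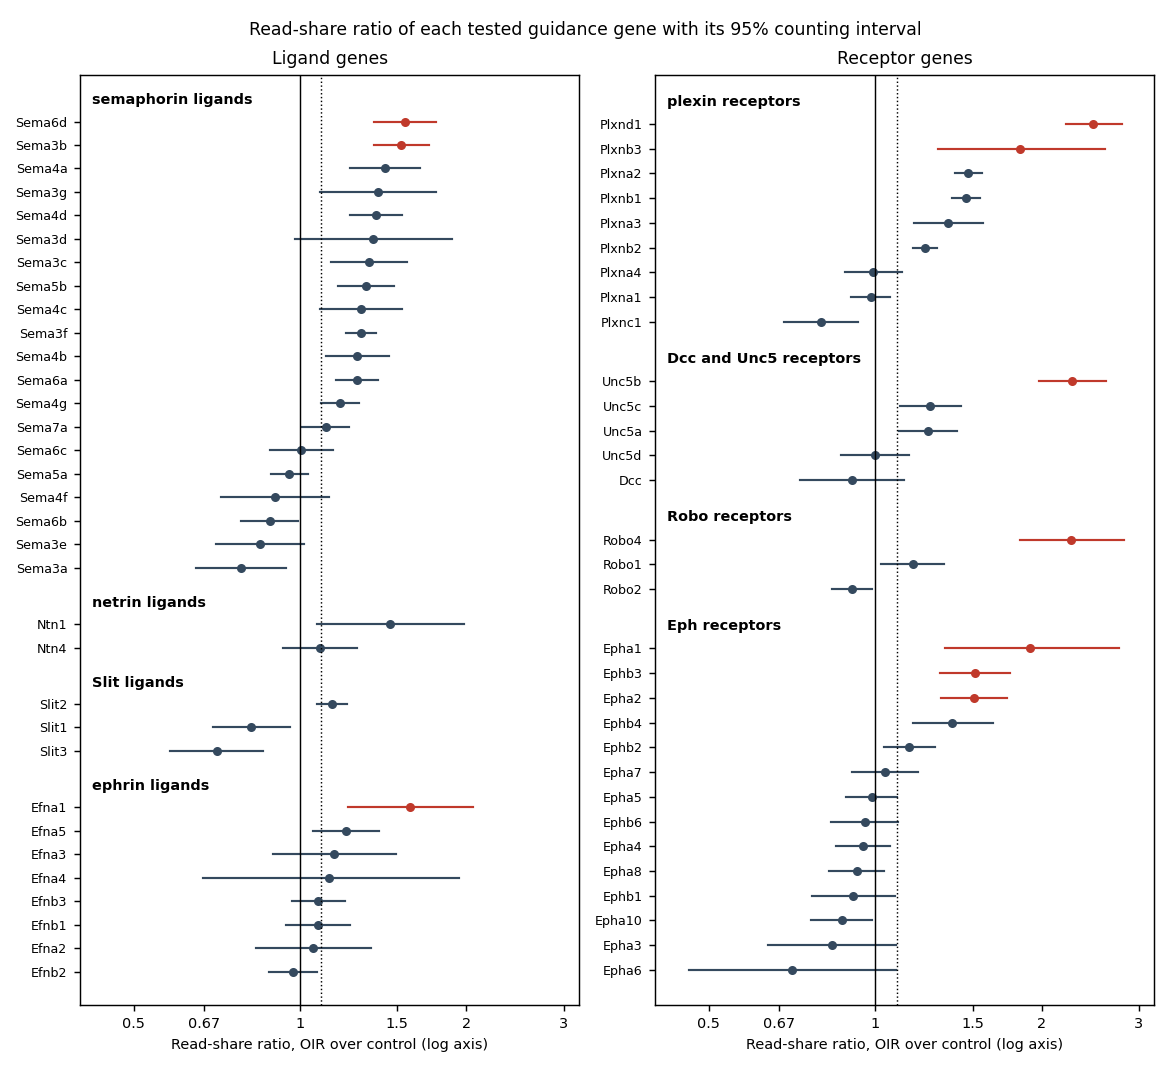
Read-share ratio of OIR over control (log axis) for the 64 tested guidance genes, with bars for the 95% counting interval and ligand genes on the left. Red marks the 10 genes with a ratio of at least 1.5 and an interval above 1. The solid line is a ratio of 1 and the dotted line the median of all tested genes, 1.09. Plxnd1, Unc5b and Robo4 lie to the right at 2.48, 2.27 and 2.26.

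Over all systems, ligands and receptors had nearly equal medians. The 33 tested ligand genes had a median difference of 0.19 and the 31 receptor genes 0.17, so that the medians differed by 0.01. This gap, ligands minus receptors, was 0.09 without the filter and -0.06 with means in place of medians. Within length bins it was 0.09, with a ligand median of 0.03 and a receptor median of -0.0560. More ligands than receptors stood above 0, 25 of 33 and 17 of 31, beside 64.9% of all tested genes. This split depended on the scaling, and once centred on the all-gene median it was 19 of 33 and 16 of 31. Of the 10 genes at a ratio of at least 1.5 with an interval above 1, 7 were receptors (22.6% of 31) and 3 ligands (9.09% of 33), beside 11.3% of all tested genes. The 3 genes at a ratio of at least 2 were all receptors (9.68% of 31), beside 6.38% of all tested genes, and the highest ligand ratio among tested genes was that of Efna1.

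**Figure D3:**
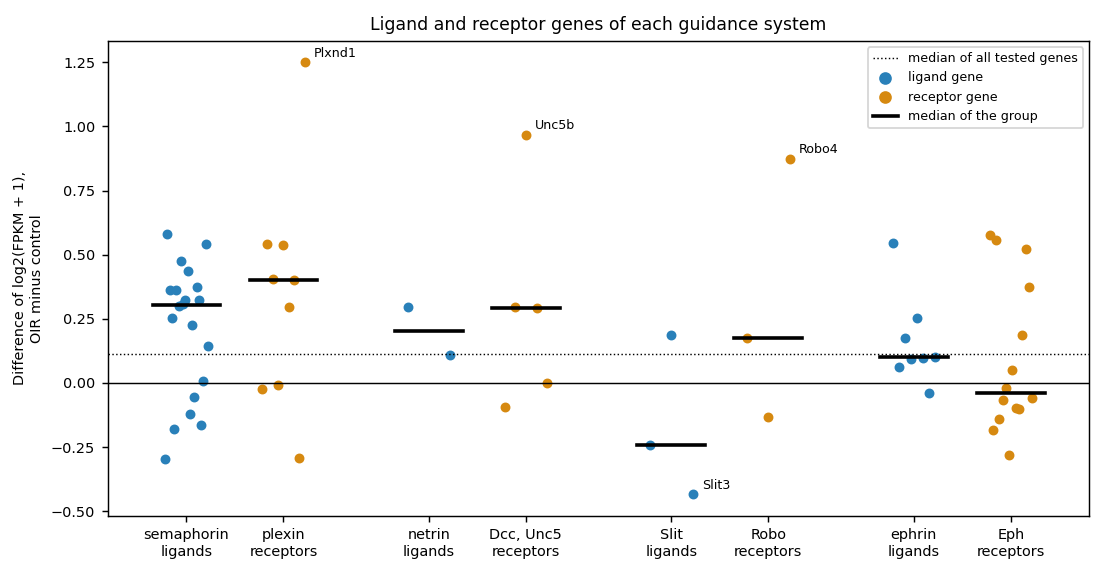
Difference of log2(FPKM + 1), OIR minus control, for each tested guidance gene by family, ligand genes in blue beside the receptor genes of the same system in orange. Black bars are group medians, the dotted line is the median of all tested genes at 0.11, and sideways position within a group has no meaning. Plxnd1, Unc5b and Robo4 stand above their families, and Slit3 is lowest at -0.43.

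Markers of several cell types differed between the libraries beside these genes. In bulk tissue a change in the number of cells and a change in RNA per cell cannot be told apart. All 15 endothelial markers were tested and had ratios from 1.01 to 2.39 with a median of 1.71, and their summed level was 244 FPKM (OIR) and 150 (control). Of the 15 marker intervals, 7 overlapped that of Plxnd1 and 8 lay wholly below it, 8 overlapped and 7 lay below that of Unc5b, and 10 overlapped and 5 lay below that of Robo4. No marker interval lay wholly above any of these. Tip cell markers other than guidance genes had ratios from 1.63 to 15.7 over 8 tested genes. Their median was 3.10, and it was 2.24 over the 6 with at least 1 FPKM in the control, since Esm1 and Adm passed the filter through OIR alone. Markers of pericytes and smooth muscle had a median ratio of 1.70 over 10 genes, of which 8 stood higher, microglia and macrophages 1.38 with 9 of 10 higher, and erythrocytes 2.66 with 5 of 5 higher. The part of these cell types in the ratios of Plxnd1, Unc5b and Robo4 was not tested.

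Markers of corneal and conjunctival epithelium summed to 1615 FPKM (OIR) and 686 (control), with 13 of 14 above 0 and a median ratio of 2.58. Efna1, Epha1, Epha2 and Ephb3 had ratios of 1.51 to 1.91, and Sema3b, Sema6d and Plxnb3 had 1.52, 1.55 and 1.83. These guidance genes were picked by a ratio of at least 1.5, so their shared direction with higher markers was set by that choice. Lens markers went the other way, 112372 and 157594 FPKM in sum, with all 13 tested members below 0 and no reads for Lim2. No marker of endothelium, surface epithelium or ganglion cells was without reads. Guidance genes with intervals below 1 were Slit1, Slit3, Sema3a, Sema6b, Plxnc1, Robo2 and Epha10, 10.9% of tested guidance genes against 14.7% of all tested genes. These 7 were chosen by their direction in these same data, so sharing it with lower markers is no separate support. Retinal ganglion cell markers summed to 380 and 532 FPKM, with 12 of 13 below 0 and a median difference of -0.50. Ganglion cells were not alone in this direction. Median differences were -0.24 for amacrine and horizontal cells, -0.22 for bipolar cells and -0.12 for Muller glia. They were -0.29 for keratocytes and scleral fibroblasts and -0.21 for pigment epithelium and melanocytes. Astrocytes and extraocular muscle had medians above 0, at 0.27 and 0.22. Rod and cone markers were level at a median ratio of 0.991. The part of these tissues in the guidance genes' ratios was not tested. Cryaa of lens stood at 35594 and 49528 FPKM, so with the ganglion cell markers both lens and retina were in the tissue.

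**Figure D4:**
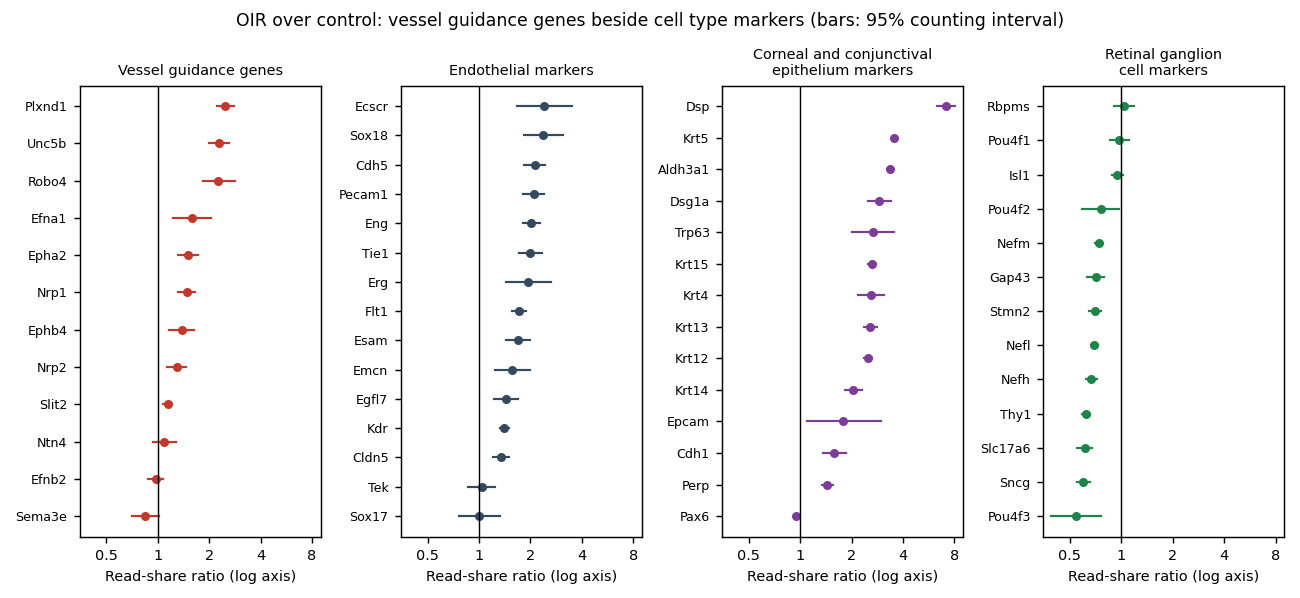
Read-share ratio of OIR over control (log axis) with 95% counting intervals for guidance genes known from vessels, the neuropilins among them, beside markers of endothelium, of corneal and conjunctival epithelium and of retinal ganglion cells. The ratios of Plxnd1, Unc5b and Robo4, 2.48, 2.27 and 2.26, lie near or above the upper end of the endothelial markers, which run from 1.01 to 2.39, while Efnb2 and Sema3e, at 0.971 and 0.847, lie near or below 1.

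Partners of the guidance receptors were also followed, from a list of 93 symbols of co-receptors, other cues and cytoplasmic mediators. Of these symbols 88 matched a gene in the table, and 86 of those genes were tested. The 86 had a median difference of 0.12, beside 0.11 for all tested genes, and 57 stood higher, where 64.9% of all tested genes did. A ratio of at least 1.5 with an interval above 1 was met by 6, against 11.3% of all tested genes. The mirror condition was met by 1, against 2.8%. On the log2(FPKM + 1) scale none was at least 2-fold higher, where 3.07% of all tested genes were, or lower, where 0.718% were. Co-receptors had a median of 0.25 over 13 genes, mediators 0.17 over 57 and other cues -0.13 over 16. By difference on that scale the highest were Itga1, an integrin chain for collagen and laminin, at 2.63 and 1.14 FPKM (ratio 2.32, 1.86 to 2.91), the kinase gene Rock2, which acts on the cytoskeleton, at 14.5 and 8.64 (1.68, 1.57 to 1.81) and Dock1, which activates Rac, at 6.06 and 3.60 (1.68, 1.49 to 1.90). Lowest by the same measure were Slitrk2, a synaptic adhesion gene, at 2.97 and 4.66 FPKM (0.638, 0.549 to 0.740), and the chimaerins Chn2 at 9.53 and 13.3 (0.718, 0.592 to 0.870) and Chn1 at 21.2 and 28.2 (0.751, 0.683 to 0.825), which switch Rac off below ephrin and semaphorin receptors.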

How the data were processed

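RNA-seq of mouse eyeballs was used, 1 control library and 1 OIR library. The tools listed are TopHat2 2.0.12 with Bowtie2 2.2.3, and HTSeq 0.6.1, with build mm10, all per the submitters' processing notes. Settings, strand use and annotation were not found in those notes. Per the file headers, the authors deposited read counts and FPKM per gene, a scaled signal (counts over a library factor, read here for those factors alone), and a log2 fold change with p-values for OIR against the control. The deposited p-values compare 1 library with 1 library and are not used. Of the table's lines, 5 held broken-off annotation text and were dropped.

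The guidance genes and marker lists were chosen with earlier results of these data known, so their counts are descriptions. Differences are of log2(FPKM + 1) among genes that reach 1 FPKM in OIR or in the control. Read-share ratios carry exact conditional (Clopper-Pearson) 95% intervals from the counts, computed with scipy 1.17.1. The interval code was tried on simulated counts that hold counting error alone, which says nothing about spread between animals. No molecular identifiers are recorded, so reads may repeat a molecule and the intervals cover counting error only. For each of 22320 genes read in both, the count and FPKM implied the same transcript length in both, so the FPKM ratio equals the read-share ratio. Values are given for genes with a ratio of at least 1.5 or its inverse and an interval without 1, for the highest gene of each family and role, for 12 vessel guidance genes and for the 3 highest and 3 lowest of the partner list. Other guidance genes named were chosen after their values were seen. Spans of 34 of the 66 guidance genes overlap another gene. Alternatives were other pseudocounts, filters, scalings, centring, thresholds and the mean.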

Additional observations from a re-analysis of the deposited data

How the results depend on the processing

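With 1 library a group no replicate could be left out, and no paired analysis was possible because each group has 1 library. The number of guidance genes at least 2-fold higher was 1, and became 3 with a pseudocount of 0.1, 3 with 0.01, 3 in TPM, 3 in CPM and 3 at a 1.5-fold threshold, 2 in TPM without lens, muscle, erythrocyte, mitochondrial and rRNA genes, and 0 at 4-fold. None was at least 2-fold lower under any alternative run. The Robo median of 0.17 was 0.0212 without the filter, which adds Robo3, and -0.13 at an FPKM of at least 5, which leaves Robo2 alone. Centring within 20 bins of transcript length, chosen after seeing the data, moved the median of all guidance genes to 0.0168, of receptors to -0.0560, of plexins to 0.20, of Dcc and Unc5 to 0.11, of Robo to -0.0560 and of Eph receptors to -0.19. The authors' factors moved the median of all tested genes by -0.12. With them 36 of the 64 guidance genes stood above 0, with centring on all tested genes 35, within length bins 33 and in TPM 50, against 42. The ephrin median was -0.00 with the authors' factors and -0.02 within length bins. All 10 genes at a ratio of at least 1.5 kept their sign in all 80 recomputed values. They were chosen by that ratio in these same data, so the kept sign is no separate support. Of the 80 values, 71 lay within the gene's counting interval once that was carried onto the log2(FPKM + 1) scale. Filling in missing symbols added no gene. Depth limits Ntn5, with 9 and 2 reads, most.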
